A study of Mus musculus with 12 samples.

Results

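Group 2 innate lymphoid cells (ILC2s) sorted from the lungs of resting mice were described by the level of each gene. All arrays labelled naive were taken, 6 of the 12 in the series, with female and male samples pooled and no group tested against another. For some of the genes whose values fell apart by sex this is given as a description of the spread between arrays. For others it is not given. Genes were ranked by their mean over the 6 arrays, and background was read from the olfactory receptors, which lymphocytes are not known to use. The naive groups were 3 samples of lung ILC2s from 8 week old female mice and 3 from 8 week old male mice, none of them given IL-33, and each sample was a pool of 5 to 14 mice. The methods name C57BL/6J as the wild-type strain, and the labels give no strain. The cells were sorted as CD45+ Thy1+ CD127+ ST2+ after removal of cells that stained for lineage antigens, among them CD3ε, CD4, CD11b, CD11c, NK1.1, Gr1, Ter119 and either kind of T cell receptor. A level is thus that of a pool of sorted cells, in which fewer positive cells and less RNA per cell cannot be told apart.

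ILC2s are lymphocytes without antigen receptors that settle in barrier tissues such as the lung. They sense alarm cytokines, chiefly IL-33, IL-25 and TSLP, together with IL-7, neuropeptides and lipid mediators, and after activation they release IL-5 and IL-13. The factors GATA3, RORα, ID2 and BCL11B are needed for their development, and arginase 1 marks them at rest.

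Values were log2 RMA levels, a scale on which 1 unit is a doubling of the array signal. Of 41345 probe sets, 23521 matched 1 gene only, and these covered 22180 genes. The 1108 olfactory receptor probe sets had medians of 3.25 to 3.73 on the 6 arrays, and their 95th percentile was 5.80, 5.76 and 5.81 on the naive female arrays and 6.23, 6.74 and 5.73 on the naive male arrays. Naive male replicate 2 therefore had the highest threshold. A gene was called above background when it exceeded the threshold of each array on all 6 arrays. This held for 4107 of 22180 genes (18.5%), 3918 of them protein coding, and for 14 of the 1105 olfactory receptors, led by Olfr1373 at 8.56 ± 0.92 (SD, n = 6). A further 1498 genes failed on naive male replicate 2 alone, and without that array 5605 genes passed. On no array was the threshold exceeded for 12984 genes. The 6 arrays correlated at r = 0.895 to 0.959 over all probe sets, with 0.910 to 0.959 within a sex and 0.895 to 0.937 between the sexes. Probe sets differ in how strongly they respond, so a rank here is a rank of array signal and not of RNA amount. The probe set of Actb, which encodes an abundant actin, read only 5.64 ± 0.36 and passed the threshold on 2 of 6 arrays.

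**Figure D1:**
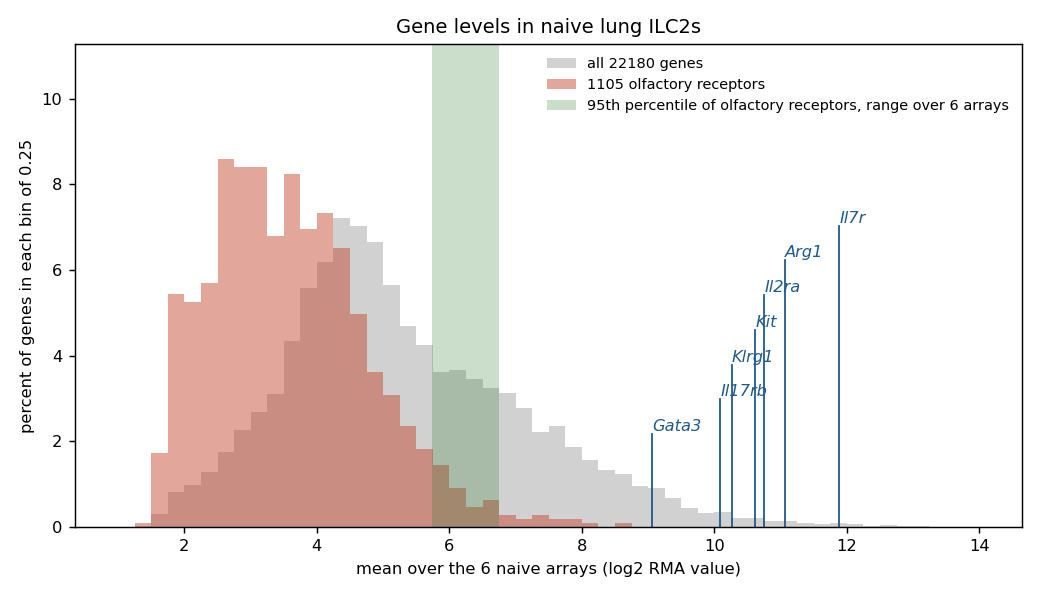
Mean log2 RMA value over the 6 naive arrays (horizontal axis) for all 22180 genes (grey) and the 1105 olfactory receptors (red), as the percent of genes in each bin (vertical axis). The green band spans the 95th percentile of the olfactory receptor probe sets over the 6 arrays, from 5.73 to 6.74, and the 7 ILC2 markers drawn as blue lines lie at 9.06 or higher.

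The 7 ILC2 marker genes read high in these cells, and all were above background on every naive array. Il7r, the IL-7 receptor that the sort itself required as CD127, read 11.73 at the lowest, 11.91 at the median and 11.97 at the highest array, and stood at rank 50 of 22180 genes. Arg1, which encodes arginase 1, read 10.82, 11.17 and 11.21 at the lowest, median and highest array. Il2ra, the IL-2 receptor chain CD25, ran from 10.59 to 10.94 with a median of 10.75. These genes varied little between pools, with SDs of 0.10 for Il7r, 0.18 for Arg1 and 0.13 for Il2ra. All female values of Arg1, 11.17 to 11.21, nevertheless lay above all its male values, 10.82 to 11.16.

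Kit, a growth factor receptor found on part of the ILC2s, ran from 10.29 to 10.92 with a median of 10.66. Klrg1, an inhibitory lectin-like receptor of mature ILC2s, ran from 10.03 to 10.60 with a median of 10.16. Il17rb, a chain of the IL-25 receptor, ran from 9.63 to 10.46 with a median of 10.15. The female values of Klrg1, 10.03 to 10.11, all lay below its male values, 10.22 to 10.60. Those of Il17rb, 9.63 to 10.11, likewise lay below its male values, 10.19 to 10.46. Kit, Klrg1 and Il17rb held ranks 184, 248 and 297 of 22180 genes, with SDs of 0.22, 0.24 and 0.31, and the arrays of each overlapped those of the next. Gata3, the master regulator of type 2 lymphocytes, ran from 8.65 to 9.41 with a median of 9.05. It was the lowest of the 7 markers, and this level came from 1 of its 2 probe sets, since the other averaged 5.31.

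Of 28 genes listed as defining ILC2s, 23 had a probe set of their own and 18 of these were above background (78.3%, beside 18.5% of all genes). The median of the 23 levels was 9.06, against 4.99 over all genes. Il1rl1, which encodes the IL-33 receptor ST2 used in the sort, was not analysed here, and neither were Tcf7, Ptgdr2, Ly6a and Areg. Besides the markers, Nmur1 averaged 11.12 ± 0.15, Id2 9.83 ± 0.08, Il9r 9.76 ± 0.29, Vipr2 9.60 ± 0.22, Bcl11b 9.40 ± 0.17 and Rora 7.34 ± 0.15 (SD, n = 6). Rora, which encodes RORα, was thus called above background but stood only at rank 3236. The 5 members not called were Il5 at 7.18 ± 0.56, Crlf2 (a chain of the TSLP receptor) at 6.92 ± 0.20, Il4 at 6.31 ± 0.32, Tph1 (tryptophan hydroxylase) at 5.67 ± 0.34 and Gfi1 (a repressor used in ILC2 development) at 5.59 ± 0.30. Il5, Crlf2 and Il4 each failed on naive male replicate 2 alone, and without that array 21 of 23 members passed.

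The genes of the sorting gate followed the gate. The 3 required antigens with a probe set were above background, Il7r as given, Ptprc (CD45) at 10.73 ± 0.19 and Thy1 at 8.16 ± 0.40. Of the antigens used to remove other cells, 7 had a probe set and 0 were above background, with or without naive male replicate 2. The highest of them was Cd3e, the CD3ε chain, at 6.28 ± 0.44, which passed the threshold on 4 of 6 arrays, and the lowest was Ly6c1, part of what the Gr1 antibody binds, at 3.18 ± 0.60.

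Markers of 12 other cell types were largely at background. Of 125 listed markers with a probe set, 9 were above background (7.20%, beside 18.5% of all genes), and without naive male replicate 2 these were 13. No marker of ILC3s, neutrophils, eosinophils, lung epithelium or stroma was called, of 5, 11, 5, 16 and 9 measured. Without naive male replicate 2, the epithelial markers called were 2 and the stromal ones 1. The macrophage and dendritic cell list had 1 of 19 called, Cd209a at 7.64 ± 0.57 (4.82 on its other probe set), and Lyz2 averaged 4.27 ± 1.02.

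The T cell list had 16.7% of its markers called and the NK cell and ILC1 list 22.2%, near the 18.5% of all genes. The shares of the B cell, mast cell, endothelial and erythroid lists were lower. Lat, an adaptor of the T cell receptor, read 10.66, 10.72 and 11.06 at the lowest, median and highest array. Cd3g, the CD3γ chain, read 10.07, 10.50 and 10.69. They were the only 2 of 12 T cell markers above background, while the other CD3 chains, Cd3e and Cd3d, read 6.28 ± 0.44 and 5.04 ± 0.67, and Cd4 and Cd8a read 4.67 ± 0.25 and 4.16 ± 0.20. Likewise Ighm, the immunoglobulin μ heavy chain, read 9.97, 10.20 and 10.46, with Cd79a at 3.91 ± 0.40 and Ms4a1, the gene of CD20, at 4.14 ± 0.33. The Ighm level was the highest of 7 probe sets of that gene, the lowest of which averaged 2.09. Of 9 NK cell and ILC1 markers, Ccl5 at 8.10 ± 0.33 and Nkg7, a granule membrane protein, at 7.43 ± 0.13 were above background, with Eomes and Ncr1 at 3.46 ± 0.16 and 3.95 ± 0.23. Of 12 mast cell and basophil markers, only Cpa3, a granule carboxypeptidase, was above background, while Tpsb2, Cma1 and Fcer1a read 4.42 ± 0.18, 3.09 ± 0.20 and 2.95 ± 0.26. The endothelial list had 1 of 10, Pecam1 at 7.53 ± 0.57, with Cdh5 at 5.07 ± 0.67, and the erythroid and platelet list 1 of 7, Gp9 at 6.56 ± 0.28. The part of other cells in these levels was not tested.

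**Figure D2:**
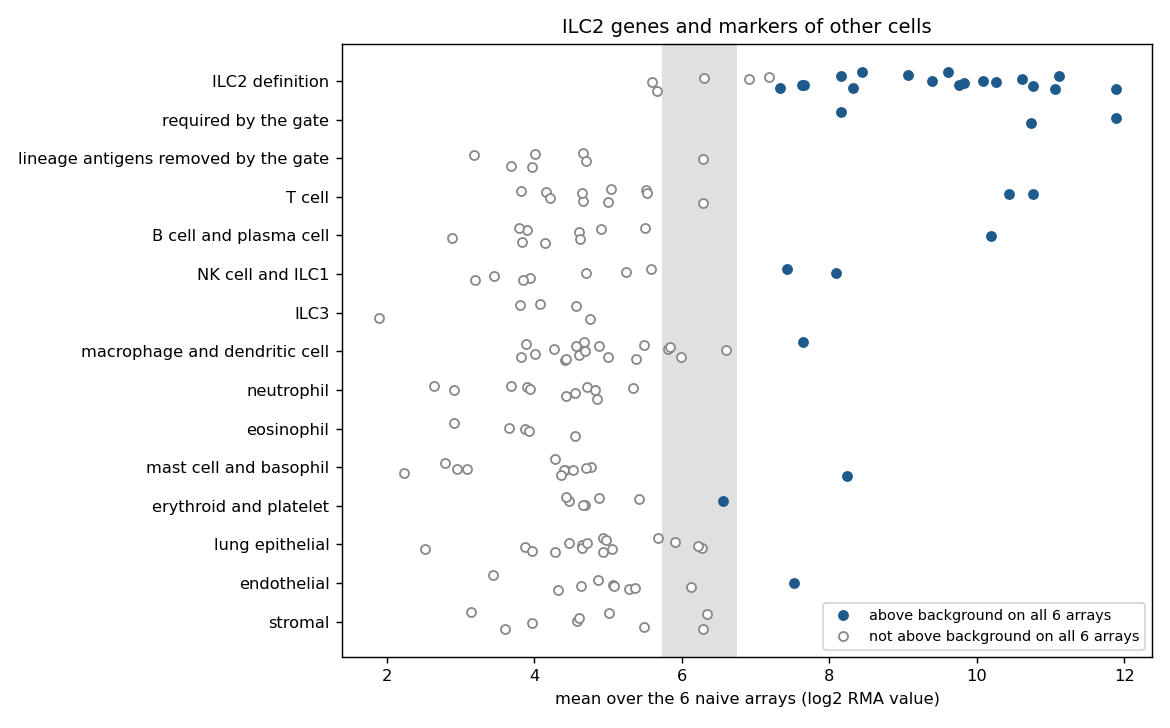
Mean log2 RMA value over the 6 naive arrays (horizontal axis) of each gene of the ILC2 list, the gate antigens and 12 lists of markers of other cells (rows), 1 point per gene, spread vertically so that points do not hide each other. Filled points were above background on all 6 arrays, open points were not, and the grey band spans the thresholds of 5.73 to 6.74. Of the ILC2 list 18 of 23 points are filled, against 9 of 125 over the marker lists.

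At the top of the ranking stood genes of protein synthesis, the mitochondrion and small RNAs. The 30 highest genes ran from Rn7sk, a small nuclear RNA that restrains transcription elongation, at 13.73 ± 0.11 down to Rpl38 at 12.13 ± 0.08. Among them were the ribosomal genes Rplp1 (13.41 ± 0.10) and Rps6 (13.20 ± 0.02), the elongation factor gene Eef1a1 (13.01 ± 0.06) and the mitochondrially encoded COX1 (13.04 ± 0.12), ND4 (12.58 ± 0.13) and ND1 (12.40 ± 0.12). The other probe sets of Rplp1 and Eef1a1 averaged 8.02 and 9.09. Of the receptors, regulators, secreted products and enzymes described below, B2m, Ly6e, Sod1 and Fosb were within the 30. Itm2b (12.63 ± 0.05) and Serinc3 (12.51 ± 0.09) encode membrane proteins. A vomeronasal receptor, Vmn1r233, also stood there at 12.98 ± 0.17, from 1 of 2 probe sets, the other of which averaged 3.43, and so did Cnbd2 at 12.89 ± 0.07, whose 3 probe sets averaged 3.62 at the lowest. Gene families were taken by name. Of these, 35 of 63 cytosolic ribosomal protein genes, 53 of 85 respiratory chain and ATP synthase genes and 31 of 39 proteasome genes were above background. This was beside 18.5% of all genes. The second family included the pseudogene Atp5c1-ps at 2.93. The cell cycle list had 2 of 19 called, Pcna at 10.47 ± 0.14 and Mcm2 at 7.24 ± 0.61, both of DNA replication. Mki67, the gene of the Ki67 antigen of dividing cells, read 5.75 ± 0.69 and Top2a 4.48 ± 0.36. Without naive male replicate 2 the cell cycle genes called were 4 of 19.

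Among receptors and other surface proteins, 80 of 319 were above background (25.1%, beside 18.5% of all genes), and 94 without naive male replicate 2. The 10 highest were Ly6e, Selplg, Cd69, Il7r, Nmur1, Cxcr6, Il2ra, Ptprc, Tnfrsf18 and Kit. Ly6e, which encodes a lipid-anchored surface protein, read 12.26, 12.45 and 12.55 at the lowest, median and highest array. Selplg, the ligand through which leukocytes roll on selectins, read 11.66, 12.05 and 12.29, although its other probe set averaged 7.37. Cd69, an antigen of early activation and of residence in tissue, read 11.76, 11.97 and 12.03. The levels of Selplg, Cd69 and Il7r overlapped and followed each other by less than their SDs, whereas Il7r lay 0.77 above the next gene, Nmur1, with no overlap between their arrays. Nmur1, the receptor for the neuropeptide neuromedin U, read 10.91, 11.11 and 11.35. In all, 6 of the 10 steps down this order were smaller than the larger SD of the neighbours.

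By family, 18 of 60 cytokine receptors were above background (30%, beside 18.5% of all genes), and 25 without naive male replicate 2. After Il7r, Il2ra, Kit and Il17rb came Ifngr1, a chain of the interferon γ receptor, at 10.05 ± 0.31, and Il27ra, the IL-27 receptor, at 9.79 ± 0.11. Il2rb and Il4ra, which take up IL-2 and IL-4 signals, averaged 9.23 ± 0.38 and 8.32 ± 0.56. The genes of the IL-18 receptor, Il18r1 and Il18rap, averaged 6.74 ± 0.40 and 7.09 ± 0.47 and were not called. Il18rap was near the edge of the call, with a smallest margin to the threshold of -0.08.

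Of 23 chemokine receptors 5 were above background (21.7%, near the 18.5% of all genes). Cxcr6, the receptor for CXCL16, read 10.73, 11.01 and 11.10 at the lowest, median and highest array. Cxcr4, the receptor for CXCL12, read 9.63, 10.19 and 10.24, with the low value on naive female replicate 3 and the other 5 arrays at 10.13 or more. Ccr2 averaged 10.06 ± 0.22, Ccr8 9.79 ± 0.26 and Ccrl2 7.43 ± 0.21. Between Ccrl2 and the next receptor, Ccr4 at 6.42 ± 0.22, lay the edge of the call.

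Of 73 receptors for lipids, neuropeptides and other small ligands, all of the G protein-coupled kind or their partners, 17 were above background (23.3%, near the 18.5% of all genes), and 45 passed the threshold on no array. Nmur1 was followed by Gpr171 (10.25 ± 0.16, with 6.52 on its other probe set), the acid sensor Gpr65 (10.12 ± 0.24), the leukotriene B4 receptor Ltb4r1 (9.76 ± 0.09), the vasoactive intestinal peptide receptor Vipr2 (9.60 ± 0.22) and the prostaglandin E2 receptor Ptger4 (9.15 ± 0.11). The prostacyclin receptor Ptgir averaged 8.59 ± 0.29, and the cysteinyl leukotriene receptors Cysltr1 and Cysltr2 averaged 8.23 ± 0.38 and 7.91 ± 0.28. Calcrl and Ramp1, which together form the receptor for calcitonin gene-related peptide, averaged 8.55 ± 0.57 and 8.07 ± 0.30.

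The TNF receptor family had 3 of 26 members above background (11.5%, beside 18.5% of all genes). Tnfrsf18, which encodes the costimulatory receptor GITR, averaged 10.68 ± 0.11, Tnfrsf25, the receptor for TL1A, 8.31 ± 0.26 and Tnfrsf10b, a death receptor, 7.36 ± 0.45. Among costimulatory and inhibitory proteins, 17 of 45 were above background (37.8%), with Cd96 at 9.85 ± 0.15, Icos at 8.32 ± 0.51, Cd200r1 at 8.77 ± 0.34 and Pdcd1, the gene of PD-1, at 7.10 ± 0.26. Integrins and adhesion receptors had 15 of 41 (36.6%), with Itga4 at 10.37 ± 0.16, Itgal at 9.36 ± 0.20 and Itgb7 at 9.03 ± 0.28. Only 2 of 24 lectin-like and NK receptors passed, Klrg1 and Clec2d (7.49 ± 0.32), and 3 of 27 pattern and Fc receptors, Tlr1 (8.68 ± 0.35), Aim2 (8.12 ± 0.22) and Ddx58, the gene of RIG-I (8.01 ± 0.47).

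Among transcriptional regulators, 106 of 217 were above background (48.8%, beside 18.5% of all genes), and 141 without naive male replicate 2. The top of this class was held by genes of the immediate early response, which many cells switch on within minutes of a signal. Lungs were made into cell suspensions, stained and sorted before RNA was extracted. Levels in the lung before these steps were not measured. Fosb read 12.10, 12.13 and 12.54 at the lowest, median and highest array and stood at rank 25 of all genes, with the high value on naive male replicate 3. Junb read 12.01, 12.16, 11.07, 12.14, 12.06 and 11.79 on naive female replicates 1 to 3 and naive male replicates 1 to 3, in that order. Jun read 12.12, 12.14, 10.86, 12.12, 11.89 and 11.53 on the same arrays. Junb and Jun, members of the JUN family of AP-1 proteins, were thus both lowest on naive female replicate 3. Nr4a1, an orphan nuclear receptor, ran from 11.39 to 12.06 with a median of 11.67, and Fos from 10.63 to 10.93 with a median of 10.80. The order Fosb, Junb, Jun and Nr4a1 was not resolved, since each step was smaller than the larger SD of the neighbours.

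Of 29 immediate early and AP-1 genes with a probe set, 19 were above background (65.5%, beside 18.5% of all genes), and 25 without naive male replicate 2. Bhlhe40 averaged 10.58 ± 0.21, Klf6 10.53 ± 0.17, Fosl2 10.02 ± 0.18, Nr4a3 9.60 ± 0.40, Atf3 9.58 ± 0.31, Nr4a2 9.43 ± 0.60 and Egr1 7.77 ± 0.23. Genes whose products limit such responses were also high, the phosphatase gene Dusp1 at 11.78 ± 0.10 and Zfp36, which encodes the mRNA-decay protein tristetraprolin, at 11.36 ± 0.06. Zfp36 was listed and counted with the transcriptional regulators here, although its product acts on mRNA. The cyclic AMP response element, at which CREB and ATF proteins bind, has TGACG as its core, the first 5 letters of the palindrome TGACGTCA. RefSeq promoter windows of GRCm38.p6, from 250 bases before to 50 after a gene's start, were searched for TGACG on both strands, so that each palindrome counts on both. Of the immediate early and AP-1 genes 20 had such a window, and 15 of these held the motif. By window the share was 21 of 29 (72.4%), beside 34.5% of the 4106 windows of all genes above background and 20.8% of all 32851 windows. The whole palindrome TGACGTCA was in 1 of the 29 windows (3.45%), beside 3.58% of the windows of genes above background and 1.79% of all windows. Windows of 1 gene can overlap, and a match describes letters and shows no binding. Creb1 itself averaged 9.24 ± 0.16, and whether any factor set the level of these genes was not tested.

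The windows of the 5 highest immediate early genes and of Dusp1 are shown because these genes led the regulators, or for Dusp1 stood second among the enzymes, and are written 5′ to 3′ on the strand of the gene with TGACG or its reverse complement in capitals. They are Fosb at chr7:19309996-19310295 (minus strand), Junb at chr8:84978699-84978998 (minus), Jun at chr4:95052173-95052472 (minus), Nr4a1 at chr15:101266596-101266895 (plus), Fos at chr12:85473640-85473939 (plus) and Dusp1 at chr17:26508423-26508722 (minus). Il7r at chr15:9529827-9530126 (minus), a marker of ILC2s, is shown beside them.
Fosb: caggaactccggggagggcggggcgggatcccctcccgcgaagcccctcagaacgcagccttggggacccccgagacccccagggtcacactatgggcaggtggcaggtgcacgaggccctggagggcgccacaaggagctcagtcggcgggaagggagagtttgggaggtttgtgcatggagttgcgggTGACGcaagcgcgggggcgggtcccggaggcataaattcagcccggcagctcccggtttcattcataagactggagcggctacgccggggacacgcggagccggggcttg
Junb: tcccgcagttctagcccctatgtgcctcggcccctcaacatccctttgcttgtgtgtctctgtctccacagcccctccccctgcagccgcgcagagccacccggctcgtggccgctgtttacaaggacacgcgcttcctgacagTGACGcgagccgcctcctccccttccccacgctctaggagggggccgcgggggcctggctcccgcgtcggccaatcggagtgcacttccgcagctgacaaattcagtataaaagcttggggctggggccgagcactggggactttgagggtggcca
Jun: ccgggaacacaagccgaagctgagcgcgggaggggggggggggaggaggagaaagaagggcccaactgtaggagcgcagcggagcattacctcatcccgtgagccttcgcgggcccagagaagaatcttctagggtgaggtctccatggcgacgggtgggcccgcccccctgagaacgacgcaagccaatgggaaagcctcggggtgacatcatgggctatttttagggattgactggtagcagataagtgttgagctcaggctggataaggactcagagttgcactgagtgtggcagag
Nr4a1: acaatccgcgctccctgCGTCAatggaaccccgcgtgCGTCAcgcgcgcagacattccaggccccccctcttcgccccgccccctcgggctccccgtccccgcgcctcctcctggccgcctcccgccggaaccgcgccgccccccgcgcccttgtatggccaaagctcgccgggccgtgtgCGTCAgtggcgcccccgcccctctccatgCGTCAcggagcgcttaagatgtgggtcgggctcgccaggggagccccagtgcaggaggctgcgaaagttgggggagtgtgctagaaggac
Fos: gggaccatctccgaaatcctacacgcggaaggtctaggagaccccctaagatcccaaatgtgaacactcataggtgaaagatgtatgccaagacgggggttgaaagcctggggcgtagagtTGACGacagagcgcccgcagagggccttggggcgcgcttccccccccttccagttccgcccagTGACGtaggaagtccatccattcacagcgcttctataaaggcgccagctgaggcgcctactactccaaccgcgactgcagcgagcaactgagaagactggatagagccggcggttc
Dusp1: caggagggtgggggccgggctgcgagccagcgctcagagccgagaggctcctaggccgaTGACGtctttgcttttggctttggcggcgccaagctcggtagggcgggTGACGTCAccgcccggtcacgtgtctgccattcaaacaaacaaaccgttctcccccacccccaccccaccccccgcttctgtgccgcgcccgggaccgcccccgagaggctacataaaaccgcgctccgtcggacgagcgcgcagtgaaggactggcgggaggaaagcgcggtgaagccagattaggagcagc
Il7r: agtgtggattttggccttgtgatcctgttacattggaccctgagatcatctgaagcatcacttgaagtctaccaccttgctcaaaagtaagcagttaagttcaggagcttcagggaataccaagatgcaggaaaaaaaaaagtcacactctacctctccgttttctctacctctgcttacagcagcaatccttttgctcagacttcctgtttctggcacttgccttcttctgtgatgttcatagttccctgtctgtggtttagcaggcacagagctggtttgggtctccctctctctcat
Fosb and Junb held 1 match each, Fos 2, Nr4a1 4 and Dusp1 3, of which the palindrome gives 2. Jun and Il7r held 0. Of the windows of the ILC2 list, 5 of 23 held the motif (21.7%).

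Of 37 factors of lymphoid and ILC2 identity 20 were above background (54.1%, beside 18.5% of all genes), and 26 without naive male replicate 2. Ikzf1, which encodes the lymphoid factor Ikaros, read 10.44, 10.56 and 10.65 at the lowest, median and highest array and differed little between pools. Notch2, a receptor whose inner part acts as a transcriptional regulator, ran from 9.97 to 10.88 with a median of 10.36. Id2, the inhibitor of E proteins that all innate lymphoid cells need, ran from 9.76 to 9.97 with a median of 9.81. After Bcl11b and Gata3 followed Hlf (8.73 ± 0.22), Rbpj (8.58 ± 0.24), the DNA-binding partner of Notch, Ets1 (8.44 ± 0.26) and Pparg (8.41 ± 0.27), a lipid sensor. Of 28 factors of other lineages 2 were called, Tcf12 at 8.68 ± 0.18 and Lef1 at 7.24 ± 0.27, while Tbx21, the T-bet gene of type 1 lymphocytes, read 5.25 ± 0.26, Spi1 of myeloid cells 5.18 ± 0.27 and Pax5 of B cells 4.91 ± 0.29.

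Of 26 STAT, NF-κB, IRF, NFAT and SMAD genes, which relay signals to the nucleus, 18 were above background (69.2%, beside 18.5% of all genes). Without naive male replicate 2 these were 23. Stat4 averaged 9.71 ± 0.23, Stat3 9.62 ± 0.18, Nfatc3 9.24 ± 0.18 and Stat6, which relays IL-4 and IL-13, 9.03 ± 0.20. Of 33 nuclear receptors and ligand sensors 9 were above background (27.3%), and 14 without naive male replicate 2. Nr3c1, the glucocorticoid receptor, read 8.64, 9.05 and 9.32 at the lowest, median and highest array. Hif1a averaged 8.50 ± 0.41 (4.71 on its other probe set), the clock repressor Nr1d2 8.28 ± 0.36 and Ahr, a sensor of aromatic compounds, 7.04 ± 0.24. The estrogen receptor genes read 4.98 ± 0.16 for Esr1 and 5.05 ± 0.14 for Esr2, above the threshold on 0 of 6 arrays.

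Among secreted and granule products, 33 of 165 were above background (20.0%, beside 18.5% of all genes), and 42 without naive male replicate 2. This share is near that of all genes. The 10 highest were B2m, Ctla2a, S100a10, Lgals1, S100a4, S100a6, Ltb, Srgn, Ctla2b and Cst3. B2m, the light chain of MHC class I that is also shed, read 12.56, 12.64 and 12.80 at the lowest, median and highest array. Ctla2a, which encodes an inhibitor of cysteine proteases, averaged 12.05 ± 0.11, and its close copy Ctla2b 10.71 ± 0.28, and how far their probes tell the pair apart was not tested. Lgals1, a galectin, ran from 11.45 to 12.20 with a median of 11.96. Ltb, the membrane-bound ligand lymphotoxin β, ran from 10.84 to 11.44 with a median of 11.39. Srgn, the proteoglycan core of granules, varied little, from 10.91 to 11.09. The other probe set of Cst3 averaged 5.27. B2m lay 0.62 above Ctla2a with no overlap, and 6 of the 10 steps of this order were smaller than the larger SD.

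Of 39 interleukin and colony-stimulating factor genes 5 were above background (12.8%, beside 18.5% of all genes), and 8 without naive male replicate 2. Mif, made by most cells, averaged 10.43 ± 0.28. Csf2, which encodes GM-CSF, read 8.87, 9.13 and 9.31 at the lowest, median and highest array, and Csf1 averaged 8.16 ± 0.23. The other probe set of Csf2 averaged 4.33. Il13, a signature cytokine of ILC2s, read 7.27, 7.71 and 7.90. Il5, the other, read 7.69, 7.29 and 7.58 on naive female replicates 1 to 3 and 6.80, 6.22 and 7.47 on naive male replicates 1 to 3. Il13 thus passed on all 6 arrays and Il5 on 5 of 6. Il2 passed at 6.86 ± 0.23, while Il9, Il17a, Ifng and Il22 read 4.19 ± 0.12, 4.56 ± 0.31, 4.34 ± 0.26 and 1.89 ± 0.31.

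Of 20 ligands of the TNF and TGF families 7 were above background (35.0%, beside 18.5% of all genes). After Ltb, Tgfb1 averaged 9.56 ± 0.43, Tnf 9.41 ± 0.49, Bmp7, a bone morphogenetic protein, 9.35 ± 0.19 and Tnfsf11, the gene of RANKL, 8.09 ± 0.65. Of 33 chemokines 2 were above background (6.06%), the neutrophil attractant Cxcl2 at 9.25 ± 0.23 and Ccl5. Ccl3 read 6.04, 6.40 and 5.51 on naive female replicates 1 to 3 and 7.54, 8.53 and 8.98 on naive male replicates 1 to 3. All female values of Ccl3 were thus below all male values, with an SD of 1.41 over the 6 arrays. Of 15 neuropeptide and hormone genes only Nmb, which encodes neuromedin B, passed, at 8.07 ± 0.29, with Calcb, a calcitonin gene-related peptide gene, at 4.37 ± 0.39. Of 16 growth factors only Vegfb passed, at 7.22 ± 0.13, and 4 did without naive male replicate 2.

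Among enzymes, 126 of 256 were above background (49.2%, beside 18.5% of all genes), and 154 without naive male replicate 2. The 10 highest were Sod1, Dusp1, Arg1, Gapdh, Stk17b, Elovl5, Cyba, Jak1, Ppp1ca and Hipk1. Sod1, the cytosolic superoxide dismutase, read 12.31, 12.36 and 12.44 at the lowest, median and highest array. Dusp1, which switches off MAP kinases, read 11.61, 11.79 and 11.89. Arg1 came next, and the steps of 0.59 from Sod1 to Dusp1 and of 0.71 from Dusp1 to Arg1 left no overlap between arrays. Arg1, Gapdh and Stk17b, a kinase of lymphocyte signalling, could not be ordered, with steps between them smaller than their SDs of 0.18, 0.14 and 0.16. The Gapdh level was that of the highest of 3 probe sets.

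Arg1 stood alone among the enzymes that draw on arginine. Arg2 read 4.75 ± 0.46, Nos2, the inducible nitric oxide synthase, 4.98 ± 0.50 and Ass1, which remakes arginine, 4.74 ± 0.51, none of them above background on all arrays. Odc1 and Srm, which make polyamines from the ornithine that arginase yields, averaged 7.77 ± 0.51 and 7.71 ± 0.29 and were called. In that list of 22 enzymes of arginine, tryptophan and amine metabolism 7 were above background (31.8%, beside 18.5% of all genes).

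Of 26 enzymes of eicosanoids and phospholipids 7 were above background (26.9%, beside 18.5% of all genes). Alox5, the 5-lipoxygenase that starts leukotriene synthesis, read 9.32, 9.77 and 10.04 at the lowest, median and highest array, although its other probe set averaged 6.29. Lta4h, which completes leukotriene B4, averaged 7.98 ± 0.24, and Alox5ap, the helper protein of the lipoxygenase, 7.34 ± 0.46 with 5 of 6 arrays above the threshold. Ltc4s and Hpgds, the synthases of leukotriene C4 and prostaglandin D2, read 4.46 ± 0.24 and 5.11 ± 0.55. Dgka, a diacylglycerol kinase that dampens lymphocyte signals, averaged 9.95 ± 0.24.

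In energy metabolism, 12 of 17 enzymes of the citric acid cycle (70.6%), 13 of 30 of fatty acids and sterols (43.3%) and 8 of 17 of glycolysis (47.1%) were above background, beside 18.5% of all genes. Elovl5, which lengthens polyunsaturated fatty acids, averaged 10.83 ± 0.08, and Cpt1a, which admits fatty acids to the mitochondrion, 9.19 ± 0.28. Idh3g and Mdh2 of the citric acid cycle averaged 9.88 ± 0.14 and 9.53 ± 0.25. Gapdh was the highest gene of glycolysis and Ldha averaged 7.95 ± 0.13, while the hexokinases Hk1 and Hk2 read 6.39 ± 0.15 and 5.14 ± 0.39 and were not called. Kinases and phosphatases had 32 of 45 and 15 of 23 members above background, and 42 and 18 without naive male replicate 2. Among them were Jak1 at 10.54 ± 0.09, the kinase of the IL-7 receptor, and the phosphatase gene Ptpn22 at 10.02 ± 0.16. Of 43 proteases 19 passed, with Furin, which cuts proproteins, at 9.59 ± 0.26, the cathepsins Ctss and Ctsb at 9.33 ± 0.17 and 9.30 ± 0.33, and the kallikrein Klk8 at 8.95 ± 0.17. Of 24 redox enzymes 11 passed, among them Cyba, a subunit of the NADPH oxidase, at 10.73 ± 0.09, while Cybb, its catalytic partner in phagocytes, read 4.26 ± 0.35.

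**Figure D3:**
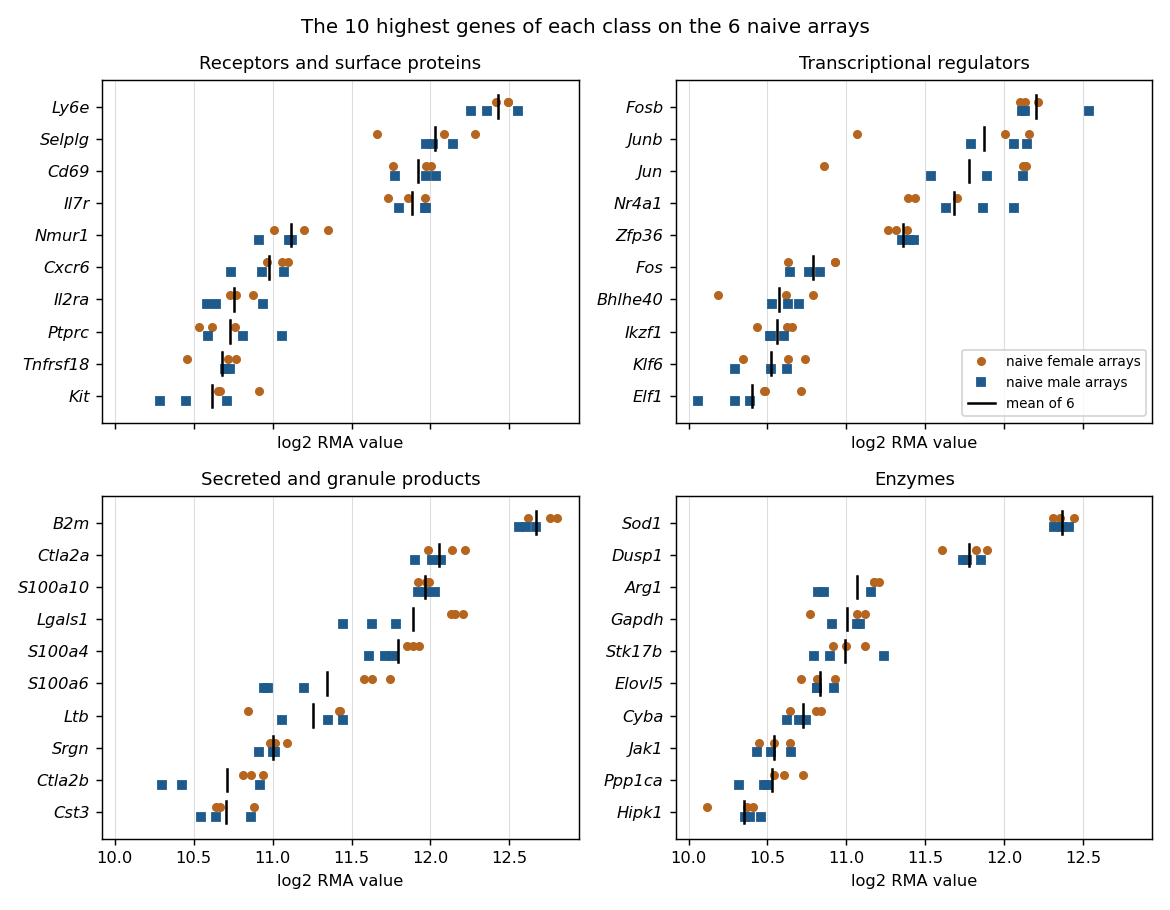
Log2 RMA values (horizontal axis) of the 10 highest receptors, transcriptional regulators, secreted products and enzymes on the 3 naive female arrays (brown circles) and the 3 naive male arrays (blue squares), with the mean of the 6 as a black line. Zfp36, the gene of an mRNA-decay protein, was listed with the regulators. Jun and Junb have 1 low value each, on naive female replicate 3. Lgals1 and S100a6 are among the genes with all female values above all male values.

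The spread between pools was small at the top of the ranking and larger below it. Over the 4107 genes above background the SD over the 6 arrays had a median of 0.28, and 3817 genes (92.9%) had an SD under 0.5. By level, the median SD was 0.29 for the 383 genes under 7, 0.30 between 7 and 8, 0.28 between 8 and 9, 0.23 between 9 and 10, 0.18 between 10 and 11, 0.12 between 11 and 12 and 0.11 for the 38 genes over 12. Among the 500 highest genes the smallest SDs belonged to Rps6, at 0.02, and then to Rap1b (a small GTPase, 11.52), S100a10 (11.97), Rpl4, Itm2b, Rpl19, Hmgb1 (a chromatin protein, 10.60), Sod1, Eif3f and Rps4x, all at 0.05 or less after rounding to 2 decimals.

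The 15 largest SDs among genes above background ran from 0.92 to 1.55 and lay at mean levels of 8.56 or less. They held 3 olfactory receptors, a vomeronasal receptor, the microRNA gene Mir101c (8.26 ± 1.26) and Btbd35f1 (8.47 ± 1.55), and the peptidase genes Pcsk1 and Cpa3. Pcsk1, the prohormone convertase, read 9.76, 9.66 and 9.24 on naive female replicates 1 to 3 and 7.60, 7.80 and 7.30 on naive male replicates 1 to 3. Cpa3 read 9.20, 9.13 and 9.06 on the same female arrays and 7.40, 7.70 and 6.97 on the male ones. For both the pooled SD thus spanned separate female and male values, and the SD within a sex was 0.27 for Pcsk1 and 0.26 for Cpa3.

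The same held in smaller measure for some members named above. Icos had an SD of 0.51 over the 6 arrays and 0.10 within a sex, with values of 8.66 to 8.89 on the female arrays and 7.77 to 7.91 on the male arrays. Thy1, an antigen of the sort, had an SD of 0.40 and of 0.17 within a sex, and S100a6 0.35 and 0.12. For Il7r the SDs were 0.10 and 0.11, and for Jun 0.51 and 0.56. Over all genes above background the median SD was 0.28 pooled and 0.26 within a sex, and 402 genes (9.79%) had a pooled SD over 1.5 times that within a sex. With 3 arrays per sex some genes pass this limit by chance. That share was not computed, so the 402 are not a count of genes that differ by sex.

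**Figure D4:**
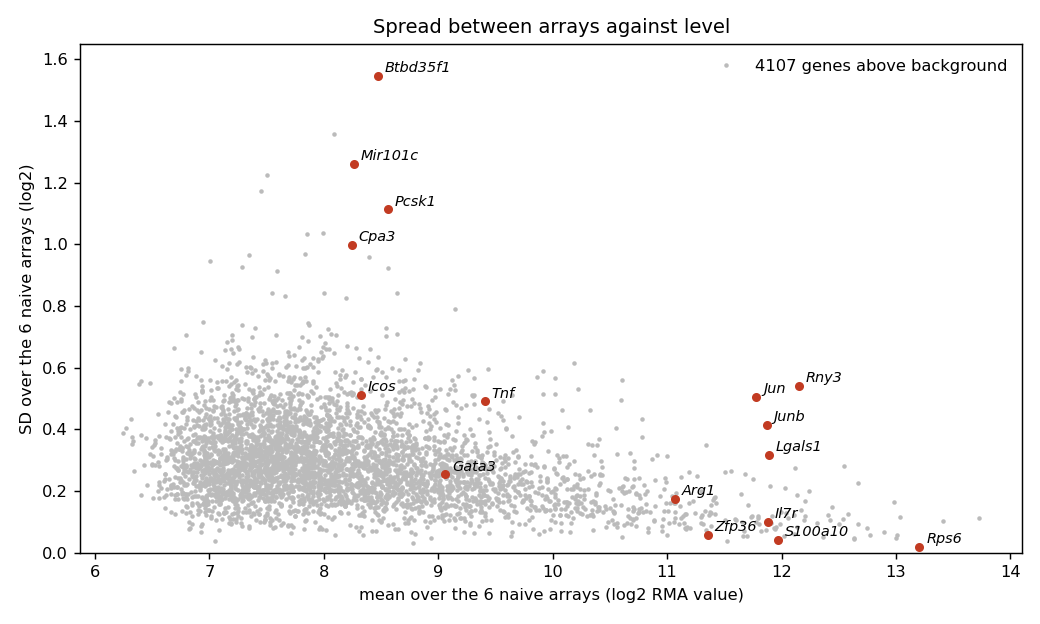
SD over the 6 naive arrays (vertical axis, log2) against the mean level (horizontal axis, log2 RMA value) of the 4107 genes above background, 1 grey point per gene, with the named genes in red. The cloud narrows to the right, Rps6 lies at the lower right at 0.02, and Jun, Junb and Rny3 stand above their neighbours at 0.51, 0.41 and 0.54.

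No array was low or high throughout. Of the genes above background, naive male replicate 2 had the lowest value for 27.8% and the highest for 8.30%, and naive female replicate 1 the lowest for 3.12% and the highest for 21.4%. On naive male replicate 2, 3 genes of myeloid cells, picked after their values were seen, stood apart, with Lyz2 at 6.09, Retnlg at 6.55 and S100a8 at 4.24. Other neutrophil markers went both ways on that array. S100a9 had its highest value there, 5.66, and Cxcr2 its lowest, 4.92. None of Lyz2, Retnlg and S100a8 passed that array's threshold of 6.74, but this was the highest threshold of the 6 arrays. The values of Lyz2 and Retnlg lay above the thresholds of the naive female arrays, 5.76 to 5.81. The call, however, compares a value only with the threshold of its own array. The median of the neutrophil list was 4.67 on naive male replicate 2, against 4.22 to 4.38 on the other 5 arrays. This was not particular to neutrophil genes. The T cell (5.31), B cell (4.72), NK cell and ILC1 (5.28), ILC3 (4.47) and stromal (4.91) medians were also highest there. Those of the other lists were not, and the mast cell median was lowest there at 4.07. The olfactory receptor median was highest on that array too, at 3.73.

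**Figure D5:**
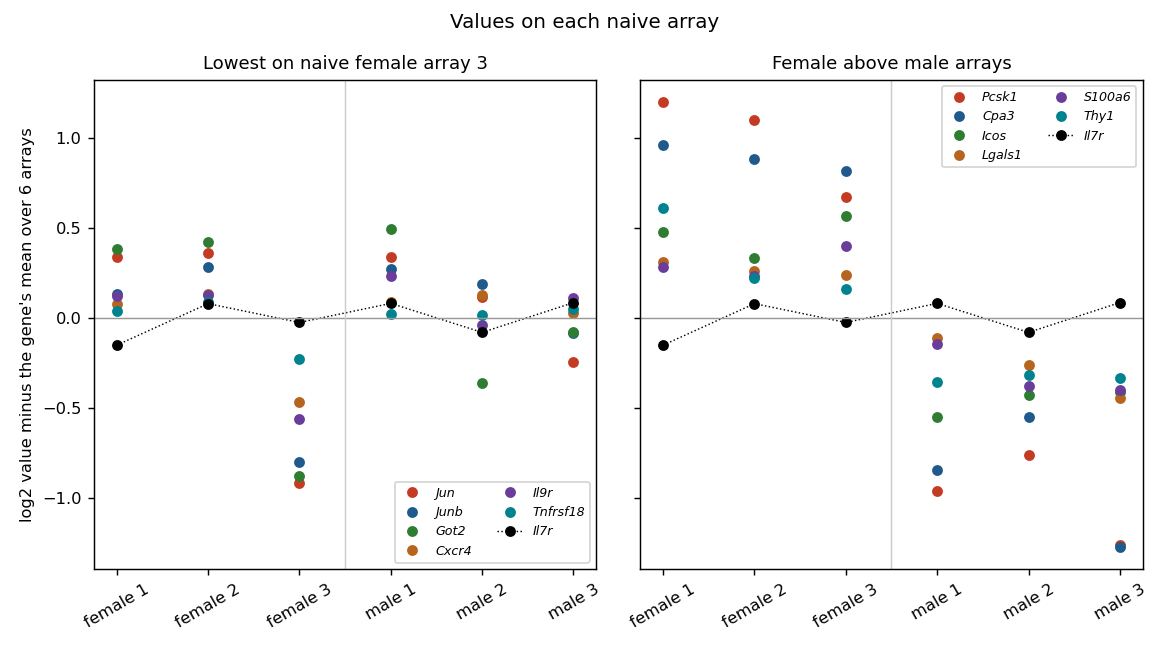
Log2 RMA value minus the gene's own mean over the 6 arrays (vertical axis) on each naive array (horizontal axis), for genes chosen after their values were seen. On the left Jun, Junb, Got2, Cxcr4, Il9r and Tnfrsf18 are lowest on naive female replicate 3, and on the right Pcsk1, Cpa3, Icos, Lgals1, S100a6 and Thy1 are above their mean on the female arrays and below it on the male arrays, with Il7r (black, dotted line) in both panels staying close to its mean.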

How the data were processed

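RNA of FACS-purified lung ILC2s was extracted with TRIzol, and samples with an RNA integrity number above 6 were amplified with the GeneChip WT Pico kit and hybridised to Mouse Gene ST arrays, 1 array per pool of mice. The authors normalized the intensities by RMA and deposited log2 expression levels per probe set, which were used as deposited. The submitters' processing notes name Affymetrix Expression Console and the paper's methods name FlexArray, and which arrays were normalized together is not given in the sources used here. RMA subtracts background and gives all arrays of a run the same distribution, so that levels are relative within an array.

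Only the 6 naive arrays were read, and the values of the other 6 were not used. Probe sets were named from the platform annotation. Of 41345 probe sets 23521 had 1 gene, 1820 several and 16004 none there, and of those with 1 gene 23328 had a gene ID in the mouse RefSeq annotation. Of the 22180 genes 1082 had several probe sets of their own, and of these the brightest by its mean of 6 values stood for the gene. The background threshold was, on each array, the 95th percentile of the olfactory receptor probe sets, and no statistical test was made. The labels do not say that the pools come from separate experiments, so the SDs measure the spread between these arrays, and the number of arrays limits the precision.

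Genes were named by a rule: the 7 markers, the gate antigens, the ILC2 list, the 30 highest genes, the 10 highest of each of 4 classes, the 3 highest of each family, the 2 highest of each list of other cells, and the 15 largest and 10 smallest SDs. Further list members, the genes in the plot of values on each array and the promoter windows shown were chosen after their values were seen. The genes of interest and the lists were chosen with earlier results of these data known. Alternatives were another percentile, other sensory receptors, means in place of single arrays, other uses of several probe sets, array centring, medians, each sex alone and each array left out. Leaving out naive male replicate 2 for the ILC2 list, the marker lists and the gate antigens was added after the data were seen. The procedure was tested on simulated data. The software was pandas 2.3.3 and numpy 2.4.6 under Python 3.11.15, with matplotlib 3.10.9 for the plots. Some genes are not reported here.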

Additional observations from a re-analysis of the deposited data

Results flagged for a closer look

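Each gene named by rule, 190 in all, and the median of each marker list was searched for 1 array far from the other 5, by the gap to the nearest array over the whole range (Dixon's ratio at its 95th percentile for 6 arrays). Chance alone passes about 1 in 20, and 11 genes and 2 lists did. Female and male arrays were pooled for this, and no cause was tested.

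Naive female replicate 3 was the low array for 5 of them. There Cxcr4 read 9.63, against 10.13 to 10.24 on the other arrays, Junb 11.07, against 11.79 to 12.16, and Il9r 9.20, against 9.72 or more. Tnfrsf18 read 10.45 there, against 10.70 to 10.77, and the kinase gene Hipk1 10.12, against 10.36 to 10.46. Atp5l, of the ATP synthase, was high on the same array at 12.40, against 12.12 to 12.22.

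Naive male replicate 2 was high for Lat at 11.06, against 10.66 to 10.76, for the median of the ILC3 list at 4.47, against 3.92 to 4.11, and for the median of the neutrophil list at 4.67, against 4.22 to 4.38. Both lists were below the background threshold of 6.74 on that array.

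Naive male replicate 3 was high for Fosb at 12.54, against 12.10 to 12.21, and for Mir5099 at 13.08, against 12.27 to 12.56. Cd4, not above background on any array, read 5.16 on naive female replicate 2, against 4.48 to 4.66, and Rps3a1 read 12.33 on naive female replicate 1, against 12.54 to 12.66.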

How the results depend on the processing

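The counts of genes above background depended most on the threshold and on the rule over arrays. With the 99th percentile of the olfactory receptors in place of the 95th, 1447 genes passed in place of 4107, with 46 receptors, 50 transcriptional regulators, 21 secreted products and 63 enzymes. With the mean over the arrays set against the mean threshold, 8073 genes passed, with 122 receptors, 160 regulators and 54 secreted products. On the female arrays alone 6995 genes passed. Leaving out 1 array at a time gave 4108 to 5605 genes, 80 to 94 receptors, 106 to 141 regulators, 33 to 42 secreted products and 126 to 154 enzymes, the highest count of each without naive male replicate 2. Of 294 values recomputed, 275 moved by less than the spread between arrays or, for counts, stayed within 1.5 times. Averaging a gene's probe sets in place of taking the highest moved the level of Gata3 to 7.19, of Vmn1r233 to 8.21, of Cnbd2 to 7.21 and of 6 others of the 10 highest genes, and which probe set measures the transcript was not tested. The 10 highest of each class kept 9 or 10 members under all 11 alternatives. No paired analysis was possible because no groups were compared and no value comes from a test. Levels near the threshold are limited by the signal over background, and a gene not called is not shown to be absent.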
